A study of Mus musculus with 8 samples.

Results

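The genes described here are 35 mouse genes of ribosome biogenesis and the nucleolus, taken by symbol from the liver expression table of a study of the gene Pkd1l1. All 35 were among the 27110 genes listed, and all 35 were among the 16420 genes with enough reads to be tested. By role they comprise 5 genes of RNA polymerase I and its factors, 8 of the small nucleolar ribonucleoproteins (snoRNPs), 7 of small subunit assembly, 10 of large subunit assembly and 5 abundant nucleolar proteins or chaperones. Their read numbers per library ran between 208 for Gar1 and 10918 for Ncl.

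The ribosome is built in the nucleolus, where RNA polymerase I transcribes the long precursor of the ribosomal RNAs. Box C/D and box H/ACA snoRNPs methylate and pseudouridylate that precursor at positions chosen by their guide RNAs, and large sets of assembly factors then fold, cut and export the small and large subunits. In liver these genes are known to be induced when hepatocytes grow, as in regeneration, and the transcription factor Myc is a well known activator of many of them.

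The libraries were bulk RNA-seq of liver tissue, with hepatocytes and cholangiocytes given as the cell types, from untreated mice at week 7. LKO mice carried a deletion of Pkd1l1 restricted to the liver, and 4 female LKO livers were sequenced (replicates 3, 4, 12 and 13). Mice given as Fl/Fl were the controls, and 3 female livers (replicates 5, 7 and 9) and 1 male liver (replicate 10) were sequenced. The sources used here do not give the Cre line or its promoter, nor is it stated whether each library is 1 animal, so p-values reflect the spread among these libraries. Because the male liver has no LKO counterpart, genotype and sex were fitted together, and each fold change below sets 4 LKO libraries against 3 female Fl/Fl libraries, with the male library given separately. In whole liver, a lower level of a transcript through fewer cells of a type and through less RNA per cell cannot be told apart.

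The 8 libraries held 71491723 to 76622375 reads assigned to genes. Pkd1l1 itself had 0 to 2 reads in each LKO library and 0 or 1 in each Fl/Fl library, so its counts do not check the genotype labels. Several libraries stood apart, some within a genotype and some along with it. The male Fl/Fl library had 5.47% of its reads on albumin, against 9.63% to 10.3% in LKO and 10.4% to 11.2% in female Fl/Fl libraries. The clock output gene Dbp was at 0.606, 1.64, 54.4 and 42.2 CPM (read counts scaled by library size) in LKO 3, 4, 12 and 13, at 2.46, 3.5 and 26.8 CPM in Fl/Fl 5, 7 and 9, and at 46.1 CPM in the male library. Arntl, a clock gene of opposite phase, had 30.3, 26.6, 5.32 and 8.31 CPM in the LKO libraries, 39.7, 29.5 and 8.52 CPM in the female Fl/Fl libraries and 3.98 CPM in the male. The immediate early gene Fos was at 4.87 to 12.7 CPM in LKO, against 297.5, 264 and 30.7 CPM in Fl/Fl 5, 7 and 9 and 4.78 CPM in the male library. Jun followed the same split, with 56.4 to 109 CPM in LKO, 251 to 583 CPM in female Fl/Fl, with 43.9 CPM in the male. The part of clock phase and of the immediate early response in the differences below was not tested for each gene. Fits with a clock term and without Fl/Fl 5 and 7 are given where they matter. Without Fl/Fl 5 and 7 the only female control is Fl/Fl 9. Its Fos and Jun levels, 30.7 and 251 CPM, were above every LKO library, so that fit cannot separate the immediate early response from genotype.

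Of the 35 genes, 1 rose in LKO livers, none fell, and 34 did not pass the test (edgeR's quasi-likelihood test, p adjusted by the Benjamini-Hochberg method over all 16420 genes, threshold 0.05). Across all genes 1.41% passed, 1.02% higher and 0.396% lower. The count of 1 among the 35 genes was 0 without Fl/Fl 5 or with no sex term, and 2 without Fl/Fl 9. In those fits 0.0238%, 0.00609% and 4.34% of all genes passed, in that order. The gene that rose was Npm3, of the nucleoplasmin family, at about 2.06 times its female Fl/Fl level. The other 34 genes had fitted log2 fold changes between -0.13 for Noc3l and 0.42 for Nhp2. At an unadjusted p under 0.05, 8 of the 35 were higher in LKO and 0 were lower, which is 22.9% of the genes, where 16.1% of all genes reached that level (9.22% higher, 6.86% lower). All LKO libraries lay above all female Fl/Fl libraries in 10 genes (Polr1c, Ubtf, Fbl, Nop10, Nhp2, Nob1, Pes1, Rrp1, Nip7 and Npm3) and below them in 0, where 8.85% of all genes had LKO wholly above and 6.22% wholly below.

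The middle of the set sat slightly above 0. The median log2 fold change was 0.13 over the 35 genes and 0.11 without Npm3, beside -0.0032 over all genes tested, and 26 of 35 (74.3%) were positive, beside 49.5% of all genes. These medians and counts carry no test. The median was 0.069 without LKO 13 and 0.018 when the male library was pooled with the female Fl/Fl libraries without a sex term, where 21 of 35 were positive. Expressed per library as the median log2 deviation of the 35 genes from their female Fl/Fl mean, LKO 3, 4, 12 and 13 stood at 0.20, 0.093, 0.013 and 0.16. Fl/Fl 5, 7 and 9 stood at -0.025, -0.00077 and -0.012, and the male library at 0.39. LKO 12 was thus close to the female Fl/Fl libraries, and the male Fl/Fl library exceeded every LKO library. The summed level of the 35 genes was 829 to 906 CPM in LKO, against 801 to 814 CPM in female Fl/Fl, with 992 CPM in the male library.

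**Figure D1:**
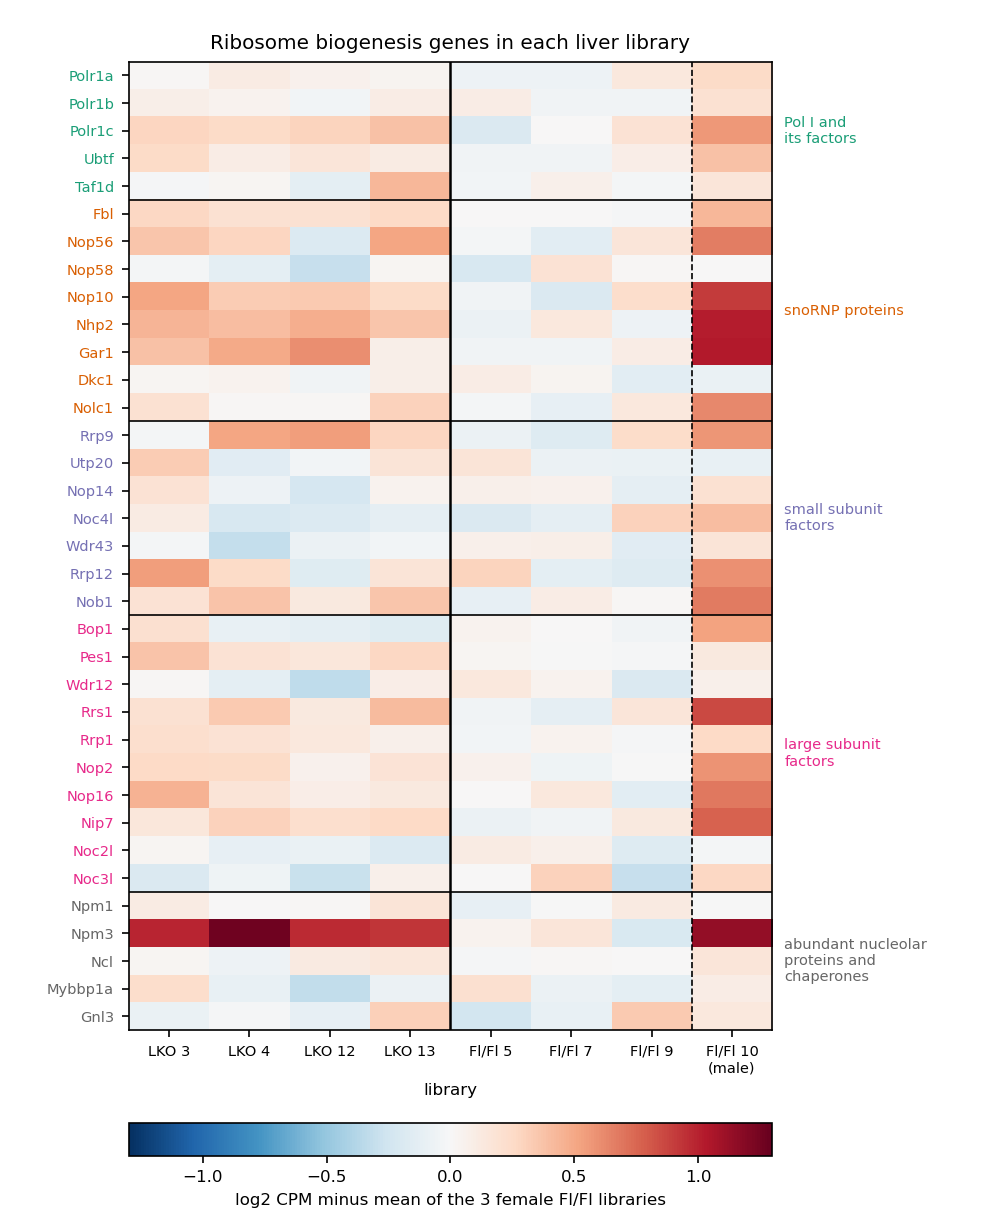
Colour map of the 35 genes (rows, by role) in the 8 libraries (columns, LKO left of female Fl/Fl, male Fl/Fl last); colour is the log2 ratio of each library's CPM to the gene's mean in the female Fl/Fl libraries. The Npm3 row is raised in all 4 LKO libraries and in the male library, and most rows of the male column are raised.

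Npm3 encodes a nucleolar protein of the nucleoplasmin family that binds its paralogue Npm1. The gene (ENSMUSG00000056209) lies on the minus strand of chromosome 19 at 45747734 to 45749591 in mm10. Its level was 14.6, 17.7, 14.4 and 13.99 CPM in LKO 3, 4, 12 and 13, against 7.55, 8.15 and 6.41 CPM in Fl/Fl 5, 7 and 9, and 16.2 CPM in the male Fl/Fl library. The LKO libraries lay wholly above the female Fl/Fl libraries, with no overlap, and the male Fl/Fl library lay inside the LKO range. The means were 15.2 ± 1.68 CPM in LKO and 7.37 ± 0.889 CPM in female Fl/Fl (SD, n = 4 and n = 3). The log2 fold change was 1.04 ± 0.13 (SE), with an unadjusted p of 6.97e-06 and an adjusted p of 0.00881 by edgeR's quasi-likelihood test, and Npm3 ranked at number 13 among all genes by p.

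The call of Npm3 depended on Fl/Fl 5 and on the treatment of sex, and the size of its difference on the treatment of sex. With 1 library left out at a time, its log2 fold change stayed between 0.945 and 1.11. With no sex term the log2 fold change was 0.66 with an adjusted p of 0.601, and without Fl/Fl 5 it was 1.06 with an adjusted p of 0.0654, which ended the call in both. Without Fl/Fl 5 and 7 together it was 1.23 with an adjusted p of 0.0582. With a clock term in the fit it was 1.07 with an adjusted p of 0.00392. In the authors' deposited table, the log2 fold change of Npm3 was 0.66 with an adjusted p of 0.327. Their fold change was near that of the fit with no sex term, whereas the main fit compares LKO with female Fl/Fl libraries only.

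**Figure D2:**
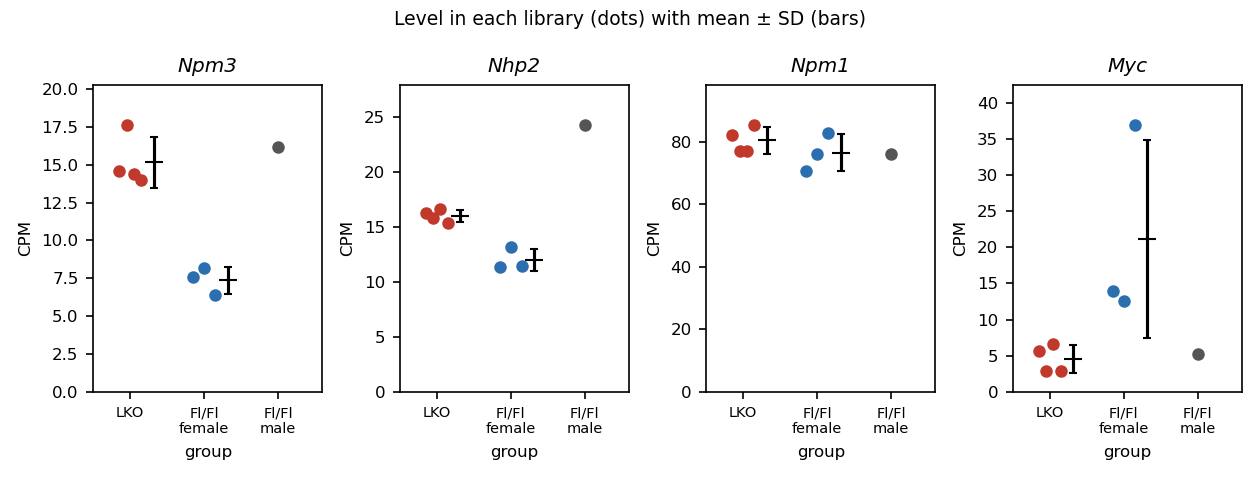
Levels in CPM (each axis starts at 0) of Npm3, Nhp2, Npm1 and Myc by library, LKO left of female Fl/Fl with male Fl/Fl last; points are libraries and bars are means ± SD (n = 4 and n = 3). Npm3 is at 13.99 to 17.7 CPM in LKO and 6.41 to 8.15 CPM in female Fl/Fl, with the male library at 16.2 CPM.

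Loci that overlap or copy Npm3 had few reads. Its model shares 84 bases with the antisense gene Gm15491, which had 11 reads over the 8 libraries, where Npm3 had 7361. Its processed pseudogene Npm3-ps1 had 15 reads. The 250 bases upstream of its RefSeq start (GRCm38.p6, chr19:45749566-45749815, minus strand) are shown because Npm3 was the gene that rose, with GC boxes (GGGCGG, the letters bound by Sp1-family factors, or CCGCCC on the other strand) in capitals. The same window of Nhp2 (chr11:51619523-51619772, plus strand), the gene with the next smallest p, is set beside it, with the ETS motif CCGGAAG also in capitals.
Npm3: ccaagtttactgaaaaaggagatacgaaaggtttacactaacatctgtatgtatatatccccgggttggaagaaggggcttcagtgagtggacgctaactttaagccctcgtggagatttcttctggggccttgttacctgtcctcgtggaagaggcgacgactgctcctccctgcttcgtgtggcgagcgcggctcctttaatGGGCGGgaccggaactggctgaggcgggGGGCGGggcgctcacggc
Nhp2: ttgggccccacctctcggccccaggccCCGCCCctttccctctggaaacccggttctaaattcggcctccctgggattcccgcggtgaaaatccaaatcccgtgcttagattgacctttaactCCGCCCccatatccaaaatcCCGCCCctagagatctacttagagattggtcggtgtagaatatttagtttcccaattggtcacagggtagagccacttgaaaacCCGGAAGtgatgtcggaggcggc
Npm3 holds 2 GC boxes in that window, and Nhp2 holds 3 GC boxes and 1 ETS motif.

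The other 4 abundant nucleolar proteins did not pass the test, and their groups overlapped. Npm1, a multifunctional chaperone and the most studied nucleoplasmin, was at 82.2, 76.8, 76.99 and 85.4 CPM in LKO 3, 4, 12 and 13, against 70.7, 76.0 and 82.7 CPM in Fl/Fl 5, 7 and 9, and 76.0 CPM in the male library. Those groups overlapped, and the log2 fold change was 0.07 ± 0.09 (adjusted p = 0.746, edgeR). Ncl, nucleolin, which binds ribosomal RNA precursors, was at 124 to 144 CPM in LKO, 128 to 131 CPM in female Fl/Fl, with 144 CPM in the male library. Gnl3, nucleostemin, was at 22.7 to 30.4 CPM in LKO and 20.8 to 30.9 CPM in female Fl/Fl. Mybbp1a, a Myb-binding nucleolar protein, was at 41.0 to 60.4 CPM in LKO and 47.0 to 59.5 CPM in female Fl/Fl, and its highest LKO value was in LKO 3. As a per-length ratio within each library, Npm3 to Npm1 in FPKM, which scales by gene length and depth, was 0.368 to 0.516 in LKO, 0.174 to 0.241 in female Fl/Fl, with 0.478 in the male library. That ratio was chosen after its values were seen and carries no test.

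The snoRNP genes had the highest median of the role groups, 0.25, with 7 of 8 positive, 0 past the adjusted threshold and 4 at an unadjusted p under 0.05. The H/ACA particle holds the pseudouridine synthase Dkc1 and the small proteins Nhp2, Nop10 and Gar1. Nhp2 was at 16.2, 15.8, 16.6 and 15.3 CPM in LKO 3, 4, 12 and 13, against 11.3, 13.1 and 11.4 CPM in Fl/Fl 5, 7 and 9, and 24.3 CPM in the male library. The LKO and female Fl/Fl libraries did not overlap, and the male library was the highest of all 8. The log2 fold change of Nhp2 was 0.42 ± 0.10 with an adjusted p of 0.0683 by edgeR, just above the threshold, while DESeq2 gave an adjusted p of 0.00844. With no sex term it was 0.087 with an adjusted p of 0.944, and with the length trend removed 0.30 with an adjusted p of 0.155. Nhp2 shares 44 bases with the oppositely transcribed Rmnd5b, and whether reads were counted by strand is not given in those sources.

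Nop10 was at 26.9, 23.6, 23.8 and 22.4 CPM in LKO 3, 4, 12 and 13, against 18.2, 16.6 and 22.1 CPM in Fl/Fl 5, 7 and 9, and 35.3 CPM in the male library. The lowest LKO library was barely above the highest female Fl/Fl library, Fl/Fl 9. Its log2 fold change was 0.35 ± 0.12 with an adjusted p of 0.171, and adjusted p ran between 0.0348 and 0.954 over the alternatives. The 1 alternative past the threshold was without Fl/Fl 9, at 0.47. The log2 fold change was 0.26 without Fl/Fl 7 (adjusted p = 0.438, edgeR) and 0.23 with the length trend removed (adjusted p = 0.417, edgeR). Without Fl/Fl 5 and 7 together it was 0.12, with Fl/Fl 9 as the only female control. With no sex term it was 0.07 (adjusted p = 0.954, edgeR). Gar1 was at 3.02 to 4.34 CPM in LKO, 2.77 to 3.05 CPM in female Fl/Fl, with 5.86 CPM in the male library. Its log2 fold change was 0.40 ± 0.17 (adjusted p = 0.277). Dkc1, the enzyme of the particle, overlapped between genotypes, at 12.6 to 13.7 CPM in LKO, 11.8 to 13.9 CPM in female Fl/Fl, with 12.2 CPM in the male library. The ratio of Nhp2 to Dkc1 in FPKM was 4.02 to 4.74 in LKO, 2.94 to 3.55 in female Fl/Fl, with 7.12 in the male library, while Nop10 to Dkc1 and Gar1 to Dkc1 overlapped between genotypes. These ratios were also chosen after their values were seen.

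Box C/D particles carry the methyltransferase Fbl, fibrillarin, on the scaffold proteins Nop56 and Nop58. Fbl was at 25.3, 24.2, 24.2 and 25.2 CPM in LKO 3, 4, 12 and 13, against 21.1, 21.1 and 20.9 CPM in Fl/Fl 5, 7 and 9, and 28.4 CPM in the male library. Its coefficient of variation was the smallest of the 35 genes in LKO and in female Fl/Fl libraries, and its log2 fold change was 0.23 ± 0.08 with an adjusted p of 0.186. Nop56 was at 12.2 to 19.7 CPM in LKO and 12.6 to 15.4 CPM in female Fl/Fl. Nop58 was at 14.04 to 17.6 CPM in LKO and 15.03 to 19.7 CPM in female Fl/Fl, with a log2 fold change of -0.11 ± 0.12. Nolc1, a chaperone of snoRNPs that moves between nucleolus and Cajal bodies, was at 18.4 to 22.5 CPM in LKO, 16.9 to 20.01 CPM in female Fl/Fl, with 28.1 CPM in the male library.

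In RNA polymerase I, 5 of 5 genes were positive, 0 passed the threshold and the median log2 fold change was 0.09. Polr1c, a subunit shared by polymerases I and III, was at 13.4, 13.1, 13.5 and 14.4 CPM in LKO 3, 4, 12 and 13, against 9.74, 11.1 and 12.6 CPM in Fl/Fl 5, 7 and 9, and 16.4 CPM in the male library. The LKO libraries lay above the female Fl/Fl libraries, which were themselves spread out, and the log2 fold change was 0.29 ± 0.11 (adjusted p = 0.240). Ubtf, the factor that binds the ribosomal DNA promoter and keeps the repeats open, was at 64.1, 57.7, 60.4 and 58.0 CPM in LKO, against 52.5, 52.4 and 57.4 CPM in female Fl/Fl, and 70.6 CPM in the male library. The groups were apart by a small margin, and its log2 fold change was 0.15 ± 0.08 (adjusted p = 0.406). The catalytic subunit genes Polr1a and Polr1b had log2 fold changes of 0.05 ± 0.09 each. Taf1d, of the promoter selectivity complex SL1, was at 8.34 to 12.3 CPM in LKO and 8.92 to 9.53 CPM in female Fl/Fl. Its highest value was in LKO 13, and its model overlaps 4931406C07Rik on the opposite strand, a gene with 130509 reads over the 8 libraries where Taf1d had 5727.

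Among the 7 small subunit factors, 4 were positive, 0 passed the threshold and none was at an unadjusted p under 0.05, with a median log2 fold change of 0.09. Nob1, the endonuclease that makes the mature end of 18S ribosomal RNA, was at 7.86, 8.94, 7.56 and 8.86 CPM in LKO 3, 4, 12 and 13, against 6.42, 7.41 and 6.98 CPM in Fl/Fl 5, 7 and 9, and 11.1 CPM in the male library. The groups did not overlap, by a narrow gap, and the log2 fold change was 0.26 ± 0.12 (adjusted p = 0.333). Rrp9, a protein of the U3 snoRNP, was at 5.90, 8.55, 8.71 and 7.25 CPM in LKO, against 5.69, 5.32 and 7.08 CPM in female Fl/Fl, and 8.91 CPM in the male library. LKO 3 lay among the Fl/Fl libraries, and the log2 fold change was 0.33 ± 0.17 (adjusted p = 0.366). Rrp9 shares 987 bases with Parp3 on the opposite strand, so its reads are uncertain. Utp20, Nop14, Noc4l and Wdr43, all parts of the large early processome as known in yeast, had log2 fold changes of 0.09, -0.01, -0.11 and -0.11. Rrp12, which serves export of the early subunits in yeast, had a log2 fold change of 0.21 ± 0.18.

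Among the 10 large subunit factors, 6 were positive, 0 passed the threshold and 2 were at an unadjusted p under 0.05, with a median log2 fold change of 0.17. Pes1, Bop1 and Wdr12 form the PeBoW complex, which is needed for processing towards 28S and 5.8S ribosomal RNA. Pes1 was at 28.2, 24.8, 24.2 and 26.3 CPM in LKO 3, 4, 12 and 13, against 22.2, 21.8 and 21.6 CPM in Fl/Fl 5, 7 and 9, and 23.9 CPM in the male library. All LKO libraries lay above the tightly grouped female Fl/Fl libraries, and the male library lay between them. The log2 fold change of Pes1 was 0.24 ± 0.09 with an adjusted p of 0.203. Its partners showed no such separation: Bop1 was at 26.1 to 33.7 CPM in LKO, 28.2 to 30.0 CPM in female Fl/Fl, with 41.8 CPM in the male library, and Wdr12 was at 10.98 to 14.6 CPM in LKO and 12.1 to 15.2 CPM in female Fl/Fl. In FPKM, the ratio of Pes1 to Bop1 was 0.818 to 0.985 in LKO, 0.722 to 0.746 in female Fl/Fl, with 0.559 in the male library. The ratio of Wdr12 to Bop1 overlapped, at 0.102 to 0.138 in LKO and 0.106 to 0.125 in female Fl/Fl. Both ratios were chosen after values were seen and carry no test.

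Rrs1, which helps bring the 5S particle to the large subunit in yeast, was at 14.1, 15.6, 13.4 and 16.4 CPM in LKO 3, 4, 12 and 13, against 11.9, 11.4 and 13.7 CPM in Fl/Fl 5, 7 and 9, and 22.2 CPM in the male library. Fl/Fl 9 overlapped the lowest LKO library, and the log2 fold change was 0.27 ± 0.11 (adjusted p = 0.270). Rrp1 was the most abundant large subunit factor, at 58.5 to 64.8 CPM in LKO, 54.6 to 57.7 CPM in female Fl/Fl, with 66.6 CPM in the male library. Its log2 fold change was 0.15 ± 0.08. Nip7, a late processing factor, was at 8.07 to 9.02 CPM in LKO, 6.93 to 7.997 CPM in female Fl/Fl, with 12.4 CPM in the male library. Nop2, a cytosine methyltransferase of 28S ribosomal RNA, and Nop16 had log2 fold changes of 0.19 and 0.21, and overlapped between genotypes. Noc2l and Noc3l, whose yeast counterparts escort the early large subunit through the nucleus, had log2 fold changes of -0.09 and -0.13, and also overlapped.

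**Figure D3:**
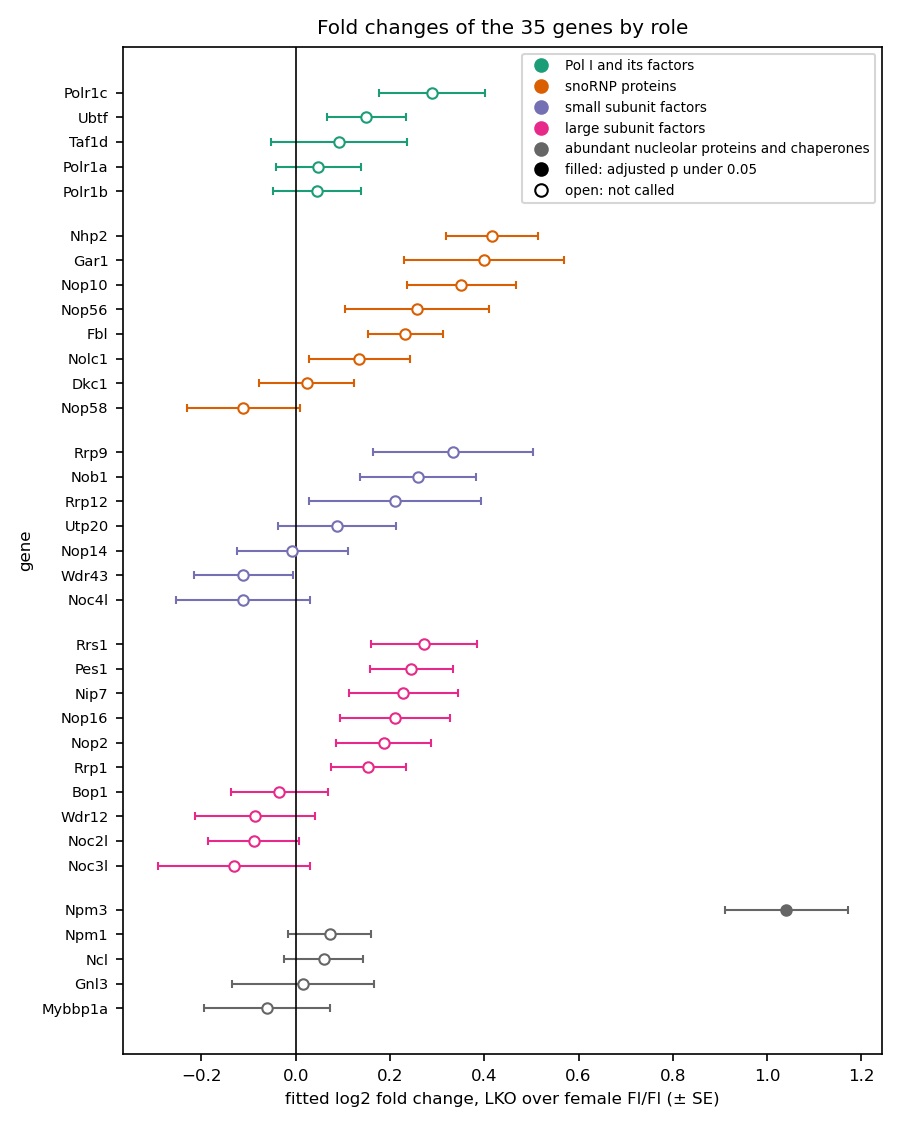
Log2 fold change of the 35 genes, LKO over female Fl/Fl (horizontal axis; points with bars of 1 SE), by role. Npm3 stands at 1.04; the next highest is Nhp2 at 0.42, and 9 genes lie below 0.

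Across the 35 genes, levels per length (FPKM, means of the LKO and then of the female Fl/Fl libraries) were led by Npm1, at 31.3 ± 1.73 and 29.8 ± 2.45 FPKM (SD, n = 4 and n = 3). Nop10 came next at 22.6 and 17.7 FPKM, then Rrp1 at 19.3 and 17.4 FPKM and Nhp2 at 14.5 and 10.8 FPKM. Ncl was at 13.7 and 13.2 FPKM, and Npm3 was at 13.3 ± 1.47 and 6.45 ± 0.748 FPKM. The lowest were Wdr12, at 1.13 and 1.2 FPKM, and Taf1d, at 1.13 and 1.06 FPKM. The male Fl/Fl library was above every female Fl/Fl library in 26 of the 35 genes and below every one in 1, Utp20, beside 33.3% and 32.8% of all genes. With 1 male library, the part of sex and of that library alone cannot be told apart.

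Shorter genes of the set had larger fold changes, with length taken from the deposited gene models. The 12 shortest genes, 1109 to 2867 bases, had a median log2 fold change of 0.24, the middle 11 genes 0.23, and the 12 longest, 4319 to 11955 bases, 0.05. Across the 35 genes Spearman's rho of length with log2 fold change was -0.50, and -0.46 without Npm3, beside -0.25 over 137 other ribosome biogenesis genes, -0.0099 over the 79 cytosolic ribosomal protein genes and -0.19 over all 16420. These are correlations across genes measured in the same libraries, which are not independent replicates. The same order ran over all genes in 4 length classes of equal size, short to long, with medians of 0.09, 0.02, -0.01 and -0.07. With a trend on length removed, in a fit chosen after the data were seen, Npm3 was at 0.93 with an adjusted p of 0.0123, and the median of the 35 genes was 0.14.

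**Figure D4:**
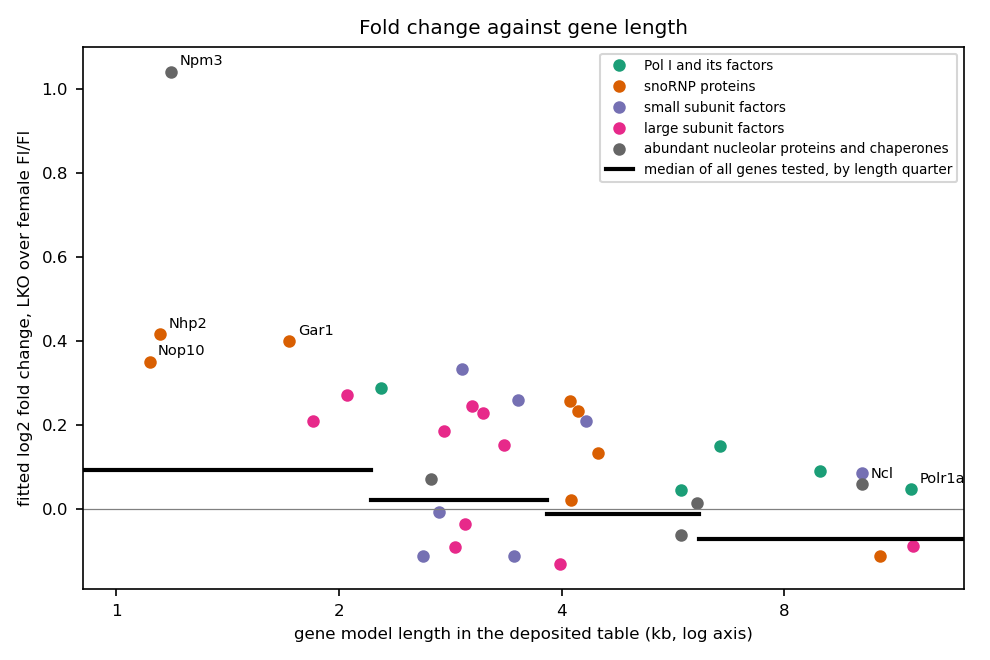
Fitted log2 fold change, LKO over female Fl/Fl, against gene model length in kb (log axis) for the 35 genes, coloured by role; black lines are medians of all genes tested in 4 length classes. The 12 longest genes have a median of 0.05 and the 12 shortest 0.24, and Npm3 is the highest point.

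Gene structure divided the set in another way. In the mm10 annotation, 27 snoRNA genes lie inside 7 of the 35 genes, which were Taf1d with 8, Nop56 with 5, Nop58 with 4, Wdr43, Ncl and Gnl3 with 3 each and Dkc1 with 1. The median log2 fold change was 0.02 in these 7 hosts and 0.17 in the other 28 genes, and the hosts were longer, with a median model length of 6101 bases against 2990.5. Length and host status cannot be told apart here. Of the 35 genes, 14 overlapped a gene on the opposite strand.

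RefSeq promoters (250 bases upstream of the start, GRCm38.p6) matched 30 of the 35 genes. A GC box on either strand was in 22 of the 30 (73.3%), beside 59.7% of 11520 tested genes with a promoter and 32.7% of all 32851 promoters. The ETS motif CCGGAAG, on either strand, was in 6 of 30, beside 14.4% of the tested genes. The E-box CACGTG, the same on both strands and known as a site of Myc and of clock factors, was in 1 of 30 (3.33%), that of Nop2, beside 9.44% of tested genes. Its 40 bases around the E-box (chr6:125131806-125131845, plus strand) are printed because the motif was found in no other of the 30 windows, with the E-box in capitals.
Nop2: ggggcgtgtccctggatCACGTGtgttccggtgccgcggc
Over the longer window that adds the first 50 bases after the start, an E-box was in 5 of 30 (16.7%: Mybbp1a, Nop2, Pes1, Utp20 and Wdr43), beside 11.2% of tested genes. A match of letters is a description and not a binding site.

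Genes outside the set were read from lists of the same pathway. Of 137 other ribosome biogenesis genes tested, 2 rose and 0 fell, where 1.41% of all genes passed, with a median log2 fold change of 0.01, 72 positive and 65 negative. At an unadjusted p under 0.05, 18 were higher and 5 lower, together 16.8% beside 16.1% of all genes, so both shares were near the background. Wdr46, a scaffold of the small subunit processome known from yeast as Utp7, rose to 19.8 ± 0.617 CPM in LKO, against 14.6 ± 0.549 CPM in female Fl/Fl (SD, n = 4 and n = 3), with a log2 fold change of 0.44 ± 0.09 and an adjusted p of 0.0379 by edgeR. Pih1d1, of the R2TP complex that assembles snoRNPs, rose to 30.9 ± 1.56 CPM in LKO, against 23.04 ± 1.42 CPM in female Fl/Fl, at 0.42 ± 0.09 with an adjusted p of 0.0466. The male library was at 24.996 CPM for Wdr46 and 30.2 CPM for Pih1d1. The count of 2 was 0 without LKO 3, LKO 4, LKO 13, Fl/Fl 5 or Fl/Fl 7, 1 without LKO 12 or Fl/Fl 10, and 4 without Fl/Fl 9. It was also 0 with the length trend removed. Over all genes 4.34% passed without Fl/Fl 9, and 0.0238% to 1.24% with any other single library left out.

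The genes with the smallest p in the other lists, none past the threshold, mostly had positive log2 fold changes. Ftsj3, a large subunit methyltransferase, and Nop53 had log2 fold changes of 0.42 (adjusted p = 0.0945) and 0.34 (adjusted p = 0.168). Eif6, the factor that keeps free large subunits from joining small ones, was at 0.44 (adjusted p = 0.0941), and Spata5l1 was at 0.28. The helicases Ddx27 and Ddx56 were at 0.28 and 0.21, and the exosome genes Exosc2 and Exosc4 at 0.38 and 0.34. Rrn3, which recruits polymerase I to its promoter, and Taf1b of SL1 were negative, at -0.29 and -0.43. The medians by list were 0.10 for other polymerase I genes, -0.03 for small and 0.0048 for large subunit factors, 0.08 for helicases, -0.12 for snoRNP assembly, 0.03 for export and 0.10 for the exosome.

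The 79 cytosolic ribosomal protein genes, the product side of the pathway, had a median log2 fold change of 0.14, with 59 positive. Of these 5 rose and 0 fell, where 1.02% of all genes rose, among them Rplp2, Rpl23, Rpl36 and Rps15, named here after their values were seen. These genes have close processed copies in the genome and their counts are uncertain. That count of 5 was 0 without LKO 4, LKO 12, Fl/Fl 5 or Fl/Fl 7, 1 without LKO 3 or LKO 13, 3 without Fl/Fl 10, and 16 higher and 4 lower without Fl/Fl 9. Over all genes 4.34% passed without Fl/Fl 9, and 0.0238% to 1.24% with any other single library left out. The ribosomal protein count was 0 with no sex term, 2 with the length trend removed, 3 with upper quartile scaling, 12 with no filter and 18 with DESeq2. Those fits called 0.00609%, 1.19%, 1.23%, 1.7% and 6.24% of all genes, in that order. The male library exceeded every female Fl/Fl library in 70 of the 79, beside 33.3% of all genes.

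Myc, a known activator of the pathway, was at 5.70, 2.85, 6.56 and 2.88 CPM in LKO 3, 4, 12 and 13, against 13.9, 12.6 and 37.0 CPM in Fl/Fl 5, 7 and 9, and 5.16 CPM in the male library. Every LKO library was below every female Fl/Fl library and the male library was inside the LKO range, the opposite order to Npm3. Fos, Jun and Junb were likewise lower in LKO and in the male library than in every female Fl/Fl library. The part of that split in the level of Myc, or of Myc in that of Npm3, was not tested. The log2 fold change of Myc was -2.23 ± 0.52 with an adjusted p of 0.113 by edgeR, so it did not pass. Mxd1, a Myc antagonist, was at -0.41 ± 0.15 with an adjusted p of 0.222, and 0 of 11 genes of the Myc network passed.

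The liver identity of the tissue and its other cell types were read from marker lists. Summed hepatocyte marker levels were 126453 to 135773 CPM in LKO, 138144 to 145200 CPM in female Fl/Fl, with 88394.9 CPM in the male library. Cholangiocyte markers summed to 53.5 to 64.8 CPM in LKO and 66.5 to 78.5 CPM in female Fl/Fl, and stellate cell markers to 263 to 302 CPM and 301 to 314 CPM. Lymphocyte markers summed to 14.7 to 18.8 CPM in LKO and 19.4 to 22.7 CPM in female Fl/Fl. Macrophage markers (216 to 263 CPM in LKO, 198 to 297 CPM in female Fl/Fl) and endothelial markers (251 to 286 CPM in LKO, 242 to 316 CPM in female Fl/Fl) overlapped. These sums used raw library sizes, without the TMM scaling of the other CPM values. On that scale hepatocyte, cholangiocyte and lymphocyte sums were wholly lower in LKO than in female Fl/Fl. Dividing by the TMM factors, 0.967 to 1.00 in LKO and 1.00 to 1.03 in female Fl/Fl, makes the hepatocyte and cholangiocyte sums overlap. Proliferation genes summed to 42.4 to 63.3 CPM in LKO and 37.0 to 70.7 CPM in female Fl/Fl. No gene of these lists passed the test, and the part of cell makeup in the results was not tested. Immediate early genes summed to 547 to 1121 CPM in LKO, 1690 to 3184 CPM in female Fl/Fl, with 412 CPM in the male library, and 2 of 10, Jun and Junb, fell.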

How the data were processed

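The submitters' processing notes name fastp, STAR, HTSeq, featureCounts, DESeq, DESeq2, edgeR and the build mm10, with no order or versions. The authors deposited 1 table holding read counts per gene, a normalised signal (counts divided by size factors, as recomputed from the table) and FPKM for each library, together with their own log2 fold changes and p-values. The counts were used for all tests, FPKM only for levels and ratios between genes, and the authors' log2 values and p-values only where named. Genotype and sex were fitted with edgeR 4.0.16 (limma 3.58.1, R 4.3.3), using TMM scaling, filterByExpr and the robust quasi-likelihood F test, with Benjamini-Hochberg adjustment over 16420 genes and a threshold of 0.05. CPM used TMM-scaled library sizes, except the sums over marker, proliferation and immediate early lists, which used raw library sizes. SE was the log2 fold change over the square root of F. The biological coefficient of variation was 20.4%. Depths of 71491723 to 76622375 reads make 3 reads equal to 0.0392 to 0.0420 CPM, covering counting error only. The script was tested on simulated data. Alternatives were DESeq2 1.42.0, limma voom, other scalings and filters, no sex term, a clock term, libraries left out, and a length trend added after seeing the data. Genes named were all 35, with library values for genes past the threshold, for the 2 smallest p of each role and, outside that rule, for Fbl. Of other lists, up to 3 genes past the threshold or else the 2 smallest p were named. The ribosomal protein genes named did not follow that rule. The 35 genes and all lists were chosen with earlier results of these data known. Overlaps came from GENCODE M21 and promoters from RefSeq GRCm38.p6. The Cre line, strand setting and annotation used for counting are not given in the sources used here. Some items are not reported here.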

Additional observations from a re-analysis of the deposited data

Results flagged for a closer look

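Among the 70 gene and genotype groups of 4 libraries examined, 8 had 1 library far from the others by Dixon's test, where chance gives about 1 in 20. Of these, 2 were among the 35 LKO groups, near that rate, and 6 among the 35 Fl/Fl groups, which mix male and female libraries. In LKO 3, Bop1 was at 33.7 CPM, against 26.1 to 27.2 CPM in the other LKO libraries. In LKO 4, Npm3 was at 17.7 CPM, against 13.99 to 14.6 CPM in the other LKO libraries, only just past the critical value. In the male library, Fl/Fl 10, Fbl was at 28.4 CPM against 20.9 to 21.1 CPM in the female Fl/Fl libraries. Nhp2 was at 24.3 CPM there, against 11.3 to 13.1 CPM, and Gar1 at 5.86 CPM, against 2.77 to 3.05 CPM. Bop1 was at 41.8 CPM there, against 28.2 to 30.0 CPM, and Nop2 at 17.7 CPM, against 11.4 to 12.3 CPM. In Fl/Fl 5, Utp20 was at 24.6 CPM, against 20.5 to 20.7 CPM in the other Fl/Fl libraries. Of the 8, 5 were in the male library, so sex and that library cannot be told apart.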

How the results depend on the processing

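Npm3 was positive in 18 of 18 alternatives and past the threshold in 15, with log2 fold changes of 0.66 to 1.23 and adjusted p of 5.79e-10 to 0.601 (DESeq2, limma voom and edgeR fits together). Without a sex term, 0 of the 35 genes, 1 of all genes and 0 of the other ribosome biogenesis genes passed, and the medians were 0.018 for the 35 genes and 0.018 for ribosomal proteins. There Polr1a was at -0.017, Polr1b at -0.0078, Nolc1 at -0.047, Nip7 at -0.0034 and Gnl3 at -0.013. Without Fl/Fl 5 and 7 together, those counts were 0, 26 and 0 and the median of the other biogenesis genes was 0.071. There Polr1a was at -0.095, Nolc1 at -0.0058, Nop14 at 0.11, Wdr43 at 0.027, Bop1 at 0.0011, Wdr12 at 0.096, Noc2l at 0.074, Noc3l at 0.18, Npm1 at -0.049, Mybbp1a at 0.069 and Gnl3 at -0.31. With the clock term, Nop14 was at 0.014 and Gnl3 at -0.0027. DESeq2 called 2 of the 35 (Npm3 and Nhp2), 885 of all genes and 4 of the others. No filter gave 462 of all genes and 4 of the others, upper quartile scaling and limma voom gave 1 of the others each, and removing the length trend gave 0 of the others. At a threshold of 0.01, 18 of all genes and 0 of the others passed, and at 0.1, 2 of the 35, 531 of all genes and 4 of the others. Leaving out 1 library at a time gave 0 to 2 of the 35, 4 to 727 of all genes, 0 to 4 of the others and a median of the 35 genes of 0.069 to 0.16. In those fits Taf1d ranged from -0.046 to 0.16, Dkc1 from -0.045 to 0.073, Utp20 from -0.0068 to 0.17, Nop14 from -0.082 to 0.059, Noc4l from -0.20 to 0.047, Noc3l from -0.27 to 0.023, Mybbp1a from -0.18 to 0.052 and Gnl3 from -0.097 to 0.20. The cause of these changes was not tested. No paired analysis was possible because the LKO and Fl/Fl libraries share no replicate number. With 4 LKO and 3 female Fl/Fl libraries, a p that misses the threshold does not show that a gene did not differ.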
